A study of Mus musculus with 2 samples.

Results

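IGHV6, also called the J606 family, is a small family of mouse antibody heavy-chain V genes. Its cells were taken as all barcodes with exactly 1 productive heavy-chain CDR3 whose V gene name begins with IGHV6, which gave 222 of 6241 cells. They used 2 of the 95 heavy V genes seen, IGHV6-3 in 146 cells and IGHV6-6 in 76. The study read B cell receptor transcripts cell by cell in Peyer's patches, lymphoid tissue in the wall of the mouse small intestine, with a droplet-based 5' V(D)J kit after bead enrichment for CD45, which marks white blood cells. One library, Cre+, held cells of H2-Ab1 fl/fl; Villin:Cre+ mice and the other, Cre-, cells of H2-Ab1 fl/fl; Villin:Cre- mice labelled as wild type. Both groups thus carry a floxed H2-Ab1, which encodes a chain of MHC class II, and the Villin promoter directs Cre to the intestinal epithelium rather than to B cells. Each library pooled 4 adult female mice. The sample labels give these 2 genotypes, while the series' design text names the Cre- genotype for each, and the tables hold no measure of H2-Ab1.

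A heavy chain is built from a V, a D and a J gene, and the CDR3, the loop at their joint, is the most variable part of the antigen-binding site. The V gene supplies its first residues, so cells of 1 family share how the loop begins. The family is named after the myeloma protein J606, which binds the plant sugar polymer inulin. In Peyer's patches B cells exchange the IgM and IgD constant regions for IgA or IgG and acquire point mutations in their receptor genes. Cells with IgA, IgG or IgE are called switched below, and cells with IgM or IgD unswitched.

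Many switched IGHV6-3 cells of the Cre+ library, and 1 lineage of the Cre- library, had heavy chains whose CDR3 began with Cys-Thr-Asp. Those shown here also had Thr at position 5, counted from the conserved Cys as position 1, and were paired with the kappa genes IGKV2-137 or IGKV14-111. The last of them, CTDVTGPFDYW, came from IgM cells and the others from IgA or IgG2b cells. This grouping was chosen after the values were seen. The nucleotide CDR3s are given as deposited, 5' to 3', with the codons of residues 3 to 5 in capitals.
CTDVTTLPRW, IGKV2-137, IGHJ3, Cre+: tgcacaGATGTTACTacgttaccgcgctgg
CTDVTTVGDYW, IGKV2-137, IGHJ2, Cre+: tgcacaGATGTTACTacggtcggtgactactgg
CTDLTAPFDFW, IGKV2-137, IGHJ2, Cre+: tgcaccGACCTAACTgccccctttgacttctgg
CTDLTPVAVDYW, IGKV2-137, IGHJ4, Cre+: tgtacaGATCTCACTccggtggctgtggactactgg
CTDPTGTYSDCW, IGKV2-137, IGHJ2, Cre-: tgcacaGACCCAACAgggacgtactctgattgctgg
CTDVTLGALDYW, IGKV14-111, IGHJ4, Cre+: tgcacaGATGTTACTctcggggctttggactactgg
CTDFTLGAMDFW, IGKV14-111, IGHJ4, Cre+: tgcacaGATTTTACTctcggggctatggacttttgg
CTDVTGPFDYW, IGKV14-111, IGHJ2, Cre+: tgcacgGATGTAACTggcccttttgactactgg

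A related set used the kappa gene IGKV2-109 and occurred in both libraries. It is shown because its 3 CDR3s differ at no more than 2 residues, and here the codons of residues 3 to 7 are in capitals.
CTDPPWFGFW, IGKV2-109, IGHJ3, Cre+: tgcacaGACCCTCCCTGGTTTggtttctgg
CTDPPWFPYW, IGKV2-109, IGHJ3, Cre+: tgcacaGACCCCCCCTGGTTTccttactgg
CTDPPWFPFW, IGKV2-109, IGHJ3, Cre-: tgcactGACCCCCCCTGGTTTcctttctgg

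In the RefSeq table of GRCm38.p6, Ighv6-3 is a V segment of 299 bases at chromosome 12, 114391712 to 114392010, and Ighv6-6 one of 300 bases at 114434788 to 114435087. They stand 42777 bases apart, at places 68 and 71 of the 183 Ighv entries counted from the lowest coordinate. The table lists 3 more V segments beside them, Ighv6-4, Ighv6-5 and Ighv6-7, and the pseudogenes Ighv6-1 and Ighv6-2. None of these 5 entries had a cell.

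The Cre+ library held 3294 cells with exactly 1 heavy chain and the Cre- library 2947, with 355258 and 355985 unique molecular identifiers (UMIs, which count transcript molecules) over all contigs. With 1 library per genotype nothing could be checked against a replicate, and no test was made. The intervals given are exact, at 95%, and hold counting error alone, without the dependence between cells of a lineage. The libraries shared 10 barcodes, none of them of an IGHV6 cell. The largest lineage of each library, a set of cells with near-identical CDR3s, lay outside IGHV6, with 64 cells in Cre+ and 417 in Cre-. Comparisons with other V genes leave these lineages out unless stated.

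Both genes were present at like levels in the 2 libraries. IGHV6-3 had 79 cells in Cre+, 2.40% of the library (interval 1.90 to 2.98), and 67 in Cre-, 2.27% (1.77 to 2.88). IGHV6-6 had 44 cells in Cre+, 1.34% (0.972 to 1.79), and 32 in Cre-, 1.09% (0.744 to 1.53). The differences, Cre+ minus Cre-, were 0.12 percentage points for IGHV6-3 (-0.66 to 0.90) and 0.25 for IGHV6-6 (-0.32 to 0.82). These shares are of all cells, largest lineages kept. Without those lineages the differences were -0.20 for IGHV6-3 (-1.07 to 0.63) and 0.10 for IGHV6-6 (-0.54 to 0.71). Neither gene met the rule for a call, a ratio of 1.5 or more either way with intervals apart, which 4 of the 64 V genes with 20 or more cells met (6.25%). That count keeps the largest lineages, and 2 of the 4 genes, IGHV4-1 and IGHV5-17, are the ones that carry them. IGHV6-3 made up 64.2% of the family in Cre+ (55.1 to 72.7) and 67.7% in Cre- (57.5 to 76.7).

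The isotypes of the 2 genes differed in the Cre+ library. IGHV6-3 was carried there by 46 IgM, 16 IgD, 9 IgA and 8 IgG2b cells, and in the Cre- library by 46 IgM, 12 IgD, 7 IgA, 1 IgG2b and 1 IgG1 cell. IGHV6-6 was carried by 35 IgM, 8 IgD and 1 IgA cell in Cre+, and by 23 IgM, 4 IgD, 1 IgA and 4 IgG2b cells in Cre-. IgA is the antibody class secreted into the gut, and IgG2b was the main IgG of the family. It was also the main IgG of other V genes, with 92 of 149 IgG cells in Cre+ and 88 of 109 in Cre-.

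The switched share of IGHV6-3 was 21.5% in Cre+ (17 of 79 cells, 13.1 to 32.2) and 13.4% in Cre- (9 of 67, 6.33 to 23.97). That of IGHV6-6 was 2.27% in Cre+ (1 of 44, 0.0575 to 12.02) and 15.6% in Cre- (5 of 32, 5.28 to 32.8). Cells of other V genes stood at 9.48% in Cre+ and 9.99% in Cre-. In the Cre+ library IGHV6-3 was higher than IGHV6-6 by 19.2 percentage points (6.34 to 30.2) and higher than other V genes by 12.04 (3.52 to 22.8). In the Cre- library the same differences were -2.19 (-20.8 to 12.6) and 3.44 (-3.77 to 14.05), so neither interval left out 0. With the largest lineages kept, the difference between IGHV6-3 and other V genes was 10.5 in Cre+ and -9.75 in Cre- (-17.0 to 0.901), since the switched share of other cells in Cre- then was 23.2%.

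**Figure D1:**
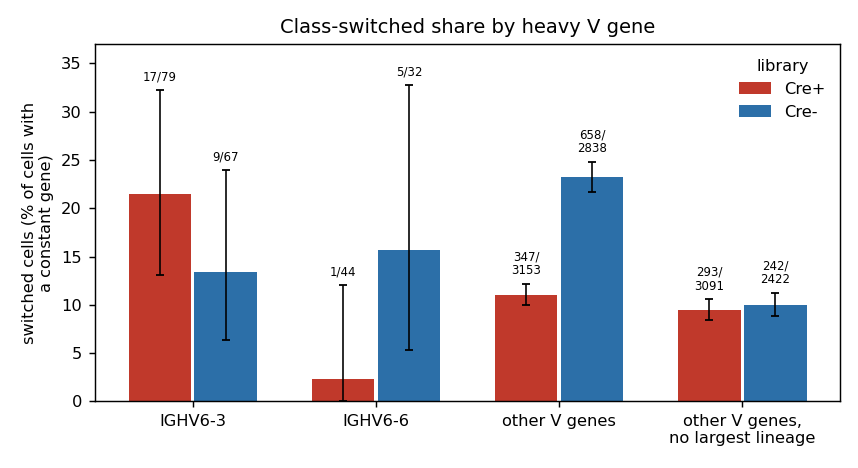
Share of class-switched cells (y axis, percent of cells with a constant gene called) for IGHV6-3, IGHV6-6, all other heavy V genes and these without the largest lineage of each library (x axis), in the Cre+ and the Cre- library. Bars are shares with switched over all cells printed above and error bars are exact 95% intervals of counting error. IGHV6-3 in Cre+ stands at 21.5% and IGHV6-6 in Cre+ at 2.27%, while the Cre- bars of the 2 genes overlap widely.

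Between libraries the switched share of IGHV6-3 was 8.09 points higher in Cre+ than in Cre- (-5.43 to 20.9) and that of IGHV6-6 13.4 points lower (-30.7 to 0.868), and both intervals included 0. The IgG share of IGHV6-6 was 0% in Cre+ and 12.5% in Cre-, a difference of -12.5 points (-29.0 to -0.440) that rests on 4 Cre- cells. Among the 51 V genes with 40 or more cells, largest lineages kept, IGHV6-3 ranked 5th by switched share in Cre+ and 13th in Cre-. IGHV6-6 ranked 45th in Cre+ and 10th in Cre-. The median gene stood at 8.33% in Cre+ and 10.5% in Cre-. Over both libraries without the largest lineages IGHV6-3 ranked 5th at 17.8% and IGHV6-6 33rd at 7.89%, with the median gene at 9.04%. Over the family 18 of 123 cells were switched in Cre+, 14.6% (8.91 to 22.1), and 14 of 99 in Cre-, 14.1% (7.95 to 22.6). Families of like size had 7.69% and 8.73% (IGHV3), 7.02% and 13.5% (IGHV14), and 10.2% and 8.62% (IGHV2), in Cre+ and in Cre-.

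IgD was read less often in IGHV6 cells than in other cells. It was the constant gene of 19.5% of IGHV6 cells in Cre+ (24 of 123) and 16.2% in Cre- (16 of 99), against 31.1% and 29.2% of other cells. The differences were -11.6 points in Cre+ (-18.4 to -3.30) and -13.0 in Cre- (-19.9 to -4.09). A naive B cell transcribes both IgM and IgD and is counted under whichever was assembled, so this share is not that of a cell type. Over the shares of IgM, IgD, IgG and IgA in each library, 8 values, the genes most like IGHV6-3 were IGHV2-2, IGHV1-78 and IGHV5-6, with summed absolute differences of 36.9, 39.8 and 43.5 points. Those most like IGHV6-6 were IGHV1-53, IGHV5-6 and IGHV1-18, at 45.1, 46.7 and 46.8 points. The median over the other genes was 69.6 points for IGHV6-3 and 86.2 for IGHV6-6. These isotype profiles keep the largest lineages.

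The first CDR3 residues differed in frequency between the family and the pooled other genes, and between its 2 members. A start with Cys-Thr was found in 92.5% of IGHV6-3 cells and 92.1% of IGHV6-6 cells, against 5.94% of other cells, of which 88.2% began with Cys-Ala. IGHV6-6 went on with Arg in 44 of 76 cells and had an acidic residue, Asp or Glu, at position 3 in 0, which allows a share of up to 3.95%. IGHV6-3 went on with Gly in 53 of 146 cells, with Asp in 31 and with Glu in 14. In number, Cys-Thr was found in 329 of 5538 other cells, against 135 IGHV6-3 and 70 IGHV6-6 cells. Cys-Thr-Arg was found in 211 of the other cells, so neither start was particular to the family. Gly, Asp and Glu after Cys-Thr were found in 4, 2 and 0 of the other cells. The mean net charge of the CDR3 in unswitched cells was -1.02 ± 1.19 in Cre+ and -1.12 ± 1.09 in Cre- for IGHV6-3 (SD over 62 and 58 cells). It was -0.30 and -0.15 for IGHV6-6, and -0.33 and -0.37 for other cells.

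Switched and unswitched IGHV6-3 cells of the Cre+ library had different CDR3 starts. Cys-Thr-Asp opened the CDR3 of 13 of 17 switched cells (76.5%, 50.1 to 93.2) and 10 of 62 unswitched cells (16.1%) in Cre+, a difference of 60.3 points (31.6 to 78.9). In Cre- it opened 2 of 9 switched cells (22.2%) and 6 of 58 unswitched cells (10.3%), a difference of 11.9 points (-10.3 to 50.2). Cys-Thr-Gly, the commonest start of unswitched IGHV6-3 cells, was found in 0 of 17 switched against 26 of 62 unswitched cells in Cre+, and in 3 of 9 against 24 of 58 in Cre-. When a lineage was counted once per isotype class, the Cys-Thr-Asp share of switched cells was 71.4% in Cre+ and 12.5% in Cre-. The 2 switched Cre- cells with this start were 1 lineage.

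The motif with Asp at position 3 and Thr at position 5 after Cys-Thr was found in 14 cells of the whole series, and all 14 used IGHV6-3. The start Cys-Thr-Asp alone was found in 33 cells of the series, 31 of them IGHV6-3. The restriction of the motif to this gene thus follows largely from its start. Of the 14 cells, 11 were switched, 9 of the 17 switched IGHV6-3 cells in Cre+ and 2 of the 9 in Cre-. The other 3 were unswitched, 2 of 62 in Cre+ and 1 of 58 in Cre-. They formed 6 lineages in Cre+ and 2 in Cre-, with IGHJ2, IGHJ3 or IGHJ4. IGKV2-137 was the light chain of 8 of the 14, IGKV14-111 of 5, and IGKV10-96 of the remaining cell, an IgM cell of the Cre- library whose CDR3 was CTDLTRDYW.

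IGKV2-137 was rare elsewhere. It was paired with 7 of 17 switched IGHV6-3 cells in Cre+ (41.2%, 18.4 to 67.1) and 2 of 9 in Cre- (22.2%, 2.81 to 60.0). Among switched cells of other V genes it was found in 3 of 283 in Cre+ (1.06%) and 4 of 233 in Cre- (1.72%), so the differences were 40.1 points (17.3 to 66.0) and 20.5 points (0.922 to 58.3). The 2 Cre- cells were 1 lineage, and counting a lineage once per isotype class gave 35.7% in Cre+ (12.8 to 64.9) and 12.5% in Cre- (0.316 to 52.7) of switched IGHV6-3 cells. In unswitched IGHV6-3 cells it was found in 1 of 61 in Cre+ and 1 of 58 in Cre-. The 9 switched cells belonged to 5 heavy-chain lineages in Cre+ and 1 in Cre-, and carried IgA in 7 cells and IgG2b in 2. The 7 other switched IGKV2-137 cells of the series used 7 different heavy V genes, 1 cell each.

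**Figure D2:**
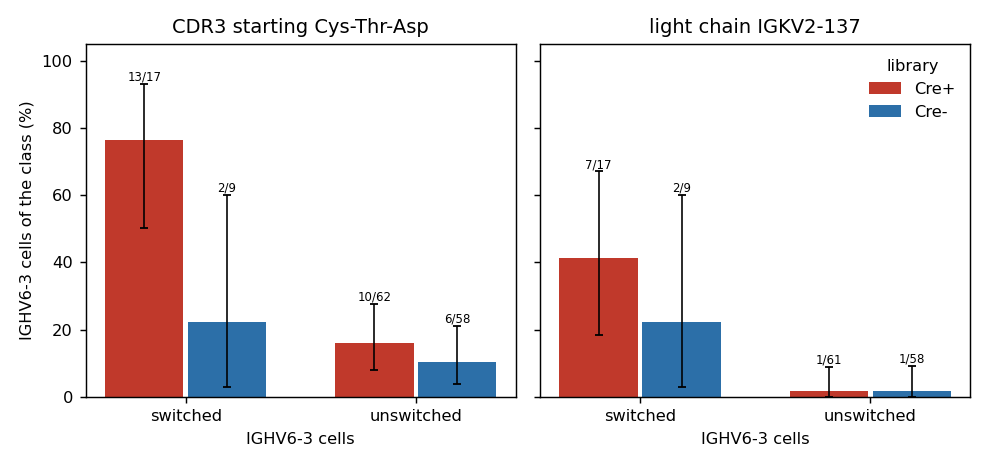
Share of IGHV6-3 cells (y axis, percent) with a CDR3 that begins with Cys-Thr-Asp (left panel) and with the light chain IGKV2-137 (right panel), in switched and unswitched cells (x axis) of the Cre+ and the Cre- library. Bars are shares with counts printed above and error bars are exact 95% intervals of counting error. In Cre+ 13 of 17 switched cells have the start and 7 of 17 the light chain, against 10 of 62 and 1 of 61 unswitched cells.

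The light chains of these 9 cells shared a kappa J gene. The counts below take cells of a lineage as separate, though the 9 came from 5 heavy-chain lineages in Cre+ and 1 in Cre-. All 9 used IGKJ5, against 23 of the 85 other IGKV2-137 cells. The light CDR3 was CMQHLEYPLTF in 6 of the 9, in both libraries, and in 18 of the 85 others. The J gene supplies the end of this loop, so the 2 counts are not independent. Among the 85 others this CDR3 was nearly as frequent as IGKJ5, in 18 against 23 cells. The same residues were encoded by 4 different nucleotide sequences in those 6 cells, of which 1 each from Cre+ and Cre- are shown in lower case throughout.
IGKV2-137 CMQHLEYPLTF, Cre+: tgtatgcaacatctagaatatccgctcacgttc
IGKV2-137 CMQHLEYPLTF, Cre-: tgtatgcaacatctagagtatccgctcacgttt

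Over all IGHV6 cells the pairing was broad, with 58 light V genes in the 221 cells that had a light chain. The commonest were IGKV14-111 in 14 cells, IGKV1-110 in 13, IGKV2-137 in 12, and IGKV1-135 and IGKV2-109 in 9 each. They were picked for high counts in IGHV6 cells, which by itself favours shares above those of other cells. The intervals for these genes do not allow for this choice. IGKV14-111 was the light chain of 10 of 78 IGHV6-3 cells in Cre+ (12.8%) and 1 of 67 in Cre- (1.49%), against 2.27% and 2.67% of other cells. The difference was 10.5 points in Cre+ (4.02 to 20.1) and -1.18 in Cre- (-2.80 to 5.39). The 10 Cre+ cells included a lineage of 3 cells and a lineage of 2, which the interval counts as separate cells. IGKV2-109 was found with IGHV6-3 alone within the family, in 6 of 78 cells in Cre+ (7.69%) and 3 of 67 in Cre- (4.48%), against 1.23% and 1.42% of other cells. The differences were 6.46 points in Cre+ (1.62 to 14.8) and 3.06 in Cre- (-0.53 to 11.1), where the interval included 0. The Cre+ cells with IGKV2-109 included a lineage of 3 cells and a lineage of 2. IGKV1-110 and IGKV1-135 had shares in the family close to those of other cells, with differences of 2.24 and 0.62 points in Cre+ and 0.84 and 0.24 in Cre-, all with intervals that include 0. Lambda chains were found in 6.56% of IGHV6 cells in Cre+ (8 of 122, 2.87 to 12.5) and 7.07% in Cre- (7 of 99, 2.89 to 14.03), against 4.58% and 4.84% of other cells. None of the 32 switched IGHV6 cells had one, which allows a share of up to 9.38%.

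The sets of related cells were small. At 85% CDR3 identity 10 lineages had 2 or more cells, 6 of IGHV6-3 in Cre+ and 2 of each gene in Cre-, and the largest had 3. They held 15 of 123 IGHV6 cells in Cre+ (12.2%, 6.99 to 19.3) and 9 of 99 in Cre- (9.09%, 4.24 to 16.6), against 8.21% and 6.17% of other cells. In 8 of the 10 all cells shared 1 light V gene. The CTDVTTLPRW lineage had 3 IgA cells, and the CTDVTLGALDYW lineage 2 IgG2b cells and the IgA cell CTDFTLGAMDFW. The lineage of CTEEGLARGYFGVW and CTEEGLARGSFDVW, with IGKV3-2, also held IgA and IgG2b, 1 cell each. IgM and IgA occurred together in the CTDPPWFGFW lineage of Cre+, whose IgA cell was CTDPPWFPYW.

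Other lineages held unswitched cells. Both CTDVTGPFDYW cells were IgM, as were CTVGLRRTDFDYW and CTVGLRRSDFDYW of the Cre- library with IGKV8-27, and a pair of Cre+ cells with CDR3s of 15 residues and IGKV2-109. The 2 IGHV6-6 lineages, both in Cre-, mixed light V genes within a lineage. The first held the IgM cells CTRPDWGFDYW and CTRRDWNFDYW with IGKV8-21 and the IgG2b cell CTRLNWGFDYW with IGKV6-13. Its 2 IGKV8-21 cells differed in kappa J gene, IGKJ2 and IGKJ4. The second held an IgM cell with IGKV4-90 and IGHD2-6 and an IgD cell with IGKV4-63 and IGHD1-1. The lineage rule uses neither D gene nor light chain and can join unrelated cells. Whether these 2 sets are clones was not tested, and they hold 5 of the 9 Cre- cells counted in lineages. The cells of IGHV6-6 in Cre+ were all single, 0 of 44, which allows a share of up to 6.82%.

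The 2 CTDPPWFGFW cells had barcodes 2 bases apart and 4753 and 3 heavy-chain UMIs, and identical light CDR3s. Of all cell pairs in Cre+, 0.00201% had barcodes that close, and the other barcodes within IGHV6 lineages were 10 to 14 bases apart. Whether both are cells was not tested. No IGHV6 heavy CDR3 was identical in both libraries, among 118 distinct in Cre+ and 98 in Cre-. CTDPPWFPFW, an IgM cell of Cre- with the light CDR3 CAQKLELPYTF, differed by 1 residue from each of the Cre+ CDR3s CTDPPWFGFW and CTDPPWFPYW, whose light CDR3s were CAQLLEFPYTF and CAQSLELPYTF.

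The switched IGHV6-6 cells, 6 in all, formed no such group. The Cre+ cell was IgA with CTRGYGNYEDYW and IGKV1-110. The Cre- cells were the IgA cell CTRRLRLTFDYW with IGKV5-48, and the IgG2b cells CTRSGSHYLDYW with IGKV10-96, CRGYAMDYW and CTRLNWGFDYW with IGKV6-13, and a CDR3 of 16 residues with IGKV6-23. All but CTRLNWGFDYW were single cells by the lineage rule.

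IGHV6 heavy chains had short CDR3s in both libraries. The mean length was 12.1 ± 2.57 amino acids in Cre+ (SD over 123 cells, median 12) and 12.3 ± 2.47 in Cre- (99 cells, median 12). Other cells had means of 14.1 and 14.2 and medians of 14. The members hardly differed, with means of 12.04 in Cre+ and 12.3 in Cre- for IGHV6-3 and 12.3 and 12.4 for IGHV6-6. In unswitched cells of both libraries together, IGHV6-3 had the shortest mean (12.2) of the 50 V genes with 40 or more such cells. IGHV14-4 was 2nd and IGHV6-6 3rd, both at 12.3, and IGHV9-1 was 4th at 12.7.

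**Figure D3:**
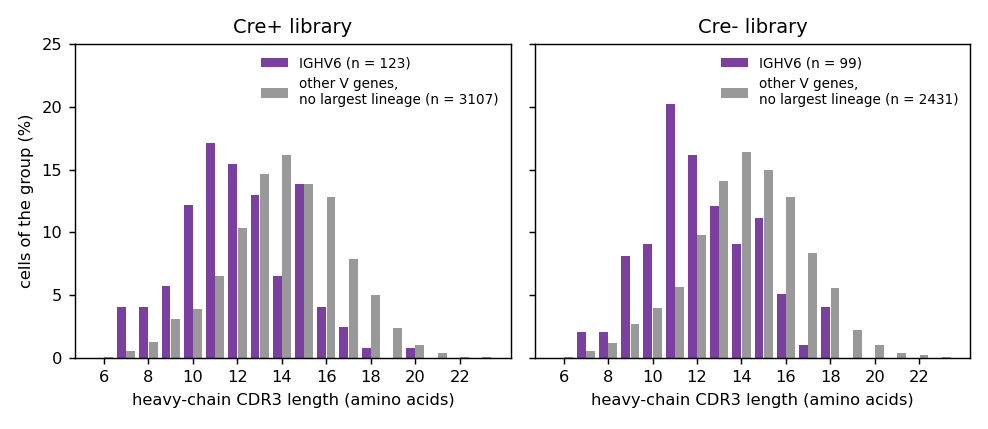
Share of cells (y axis, percent of the group) by heavy-chain CDR3 length in amino acids (x axis) for IGHV6 cells and cells of other V genes without the largest lineage, in the Cre+ library (left) and the Cre- library (right). The IGHV6 bars reach their highest value at 11 residues in both libraries and those of other V genes at 14.

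The mean length was lower in IGHV6 cells within each J gene. With IGHJ3 the IGHV6 means were 11.1 in Cre+ and 11.5 in Cre-, against 13.7 and 13.8 for other cells, and with IGHJ2 they were 11.5 and 11.4, against 13.2 and 13.3. With IGHJ1 and IGHJ4 the IGHV6 means lay between 13.5 and 14.2, and those of other cells between 15.004 and 15.3. The IGHJ4 medians of the Cre- library were both 15, over 13 IGHV6 cells. The families IGHV3, IGHV14 and IGHV2 had medians of 14 to 14.5. Their means in Cre+ and Cre- were 14.1 and 14.2 for IGHV3, 13.2 and 13.2 for IGHV14, and 14.5 and 14.7 for IGHV2. IGHV14 thus lay between IGHV6 and the other 2 families. A D gene was called in 79.7% of IGHV6 cells in Cre+ (98 of 123) and 86.9% in Cre- (86 of 99), against 91.9% and 91.4% of other cells, with differences of -12.2 (-20.5 to -5.42) and -4.53 (-12.9 to 1.53).

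J usage was set beside that of other V genes for IGHV6-3 and between the members. IGHV6-3 used IGHJ3 in 36.7% of cells in Cre+ (29 of 79) and 25.4% in Cre- (17 of 67), against 21.8% and 20.9% of other cells, differences of 14.95 points (4.28 to 26.6) and 4.44 (-5.55 to 16.7). It used IGHJ4 in 22.8% of cells in Cre+ and 10.4% in Cre-, against 23.5% and 25.1%. The IGHJ4 difference in Cre- was -14.6 points (-21.0 to -4.60). IGHV6-6 used IGHJ3 in 20.5% of cells in Cre+ (9 of 44) and 8 of 32 cells in Cre-. The difference between the members, IGHV6-3 minus IGHV6-6, was 16.3 points in Cre+ (-1.97 to 32.0) and 0.37 in Cre- (-20.5 to 18.5), and for the other J genes its interval included 0 in both libraries as well. Over the family, IGHJ1, IGHJ2, IGHJ3 and IGHJ4 made up 12.2%, 31.7%, 30.9% and 25.2% of cells in Cre+ and 22.2%, 39.4%, 25.3% and 13.1% in Cre-.

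Of cells with a D gene called, IGHV6-6 used IGHD4-1, the short D gene nearest to the J genes, in 23.5% in Cre+ (8 of 34) and 33.3% in Cre- (9 of 27), against 12.7% and 10.7% of other cells. The differences were 10.8 points (-2.03 to 28.5) and 22.7 points (5.80 to 43.3). IGHV6-3 used it in 14.1% and 10.2%, with differences from IGHV6-6 of -9.47 points in Cre+ (-28.6 to 7.37) and -23.2 in Cre- (-44.7 to -3.25). The other common D genes of the family were IGHD1-1 (32.7% in Cre+ and 27.9% in Cre-), IGHD2-4 (13.3% and 16.3%), IGHD2-3 (15.3% and 5.81%) and IGHD2-6 (6.12% and 11.6%). For each of these 4 genes the interval of the difference from other cells included 0 in both libraries.

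The median unswitched IGHV6-3 cell had 14 heavy-chain UMIs in Cre+ (interquartile range 10 to 22.5) and 16 in Cre- (11.25 to 22.75). Unswitched IGHV6-6 cells had medians of 10 and 12, and those of other V genes 8 (5 to 12) and 9 (5 to 13). Among 50 V genes, the IGHV6-3 median was 2nd in Cre+, tied with 1 other gene, and shared the highest value in Cre- with 1 other gene. The median light-chain count of the same IGHV6-3 cells was 24 UMIs in Cre+ and 39 in Cre-, against 29 and 32 in unswitched cells of other genes. It was thus lower than in other genes in Cre+, where it ranked 49th of the 50 genes, tied with 1 other gene for the lowest value. In Cre- it was higher and ranked 5th, tied with 1 other gene. More transcripts per cell and a more efficient recovery of these transcripts cannot be told apart.

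**Figure D4:**
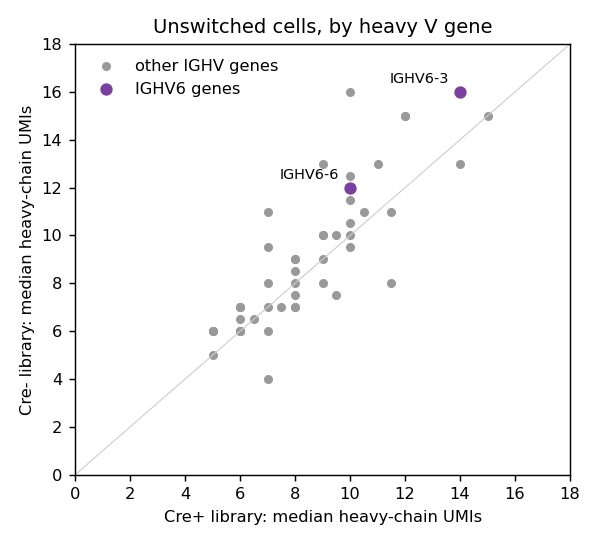
Median heavy-chain UMIs per unswitched cell for each of 50 heavy V genes, in the Cre+ library (x axis) and the Cre- library (y axis), on linear scales with a line of equality. IGHV6-3 lies at 14 and 16 and IGHV6-6 at 10 and 12, toward the upper right of the other genes.

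At 100 or more heavy-chain UMIs there were 6 IGHV6 cells in Cre+ (4.88%, 1.81 to 10.3) and 3 in Cre- (3.03%, 0.629 to 8.60), against 0.933% and 0.987% of other cells. Of these 9 cells, 5 were switched and 4 were IgM. The 4 highest were the IgM cell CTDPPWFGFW of Cre+ with 4753 UMIs, the IgG2b IGHV6-6 cell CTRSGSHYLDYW of Cre- with 3200, an IgM IGHV6-3 cell of Cre- with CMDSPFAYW and 1915, and the IgG2b IGHV6-3 cell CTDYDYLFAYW of Cre+ with 1485. That last cell carried IGKV2-137 with IGKJ5 and has Asp at position 3 without the Thr, in its CDR3 sequence as deposited with the codon for residue 3 in capitals.
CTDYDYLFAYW, IGKV2-137, IGHJ2, Cre+: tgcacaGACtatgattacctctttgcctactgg

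V region sequence was not analysed here, and mutation was looked for within the CDR3 alone. A J mismatch was any difference in the 9 nucleotides before the last CDR3 codon from the commonest such sequence of that J gene in unswitched cells. Loss of J nucleotides during joining gives mismatches too, and other cells with short CDR3s had more of them. A mismatch was found in 14 of 17 switched IGHV6-3 cells in Cre+ (82.4%) and 6 of 9 in Cre- (66.7%), against 20 of 62 (32.3%) and 14 of 58 (24.1%) unswitched IGHV6-3 cells. The differences between switched and unswitched cells were 50.1 points in Cre+ (21.2 to 68.0) and 42.5 in Cre- (3.55 to 70.3). In Cre+ the mismatched switched cells included all 3 cells of the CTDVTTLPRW lineage and all 3 of the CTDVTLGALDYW lineage. In Cre- they included the 2 cells of the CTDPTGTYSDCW lineage. The intervals here count such cells as separate, and that of Cre- came within 3.55 points of 0. The mismatch share of switched IGHV6-3 cells was above that of switched cells of other V genes, 33.4% in Cre+ and 38.4% in Cre-, by 48.9 points (22.5 to 63.8) and 28.2 points (-9.06 to 54.8). Other switched cells of the same J genes and CDR3 length classes would give 41.6% and 37.7%.

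**Figure D5:**
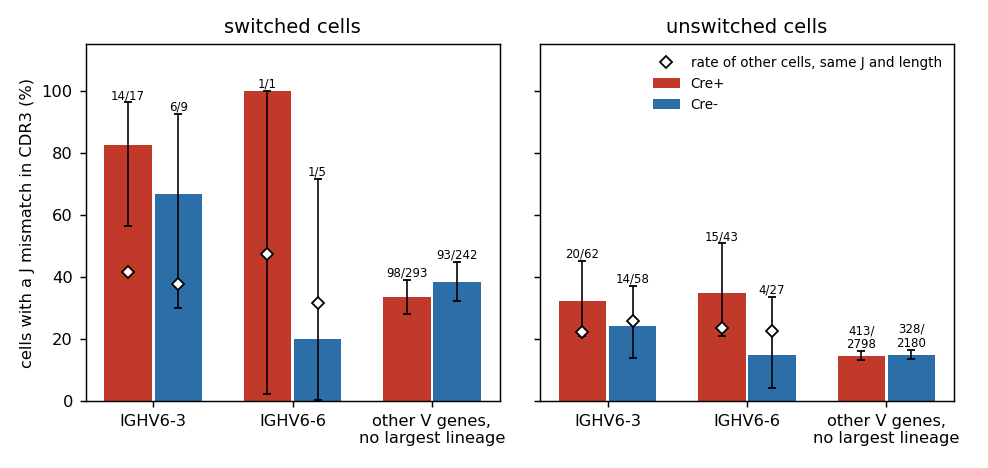
Share of cells with a J mismatch inside the CDR3 (y axis, percent) in switched cells (left) and unswitched cells (right) of IGHV6-3, IGHV6-6 and other V genes without the largest lineage (x axis), in the Cre+ and the Cre- library. Bars are shares with counts printed above, error bars are exact 95% intervals of counting error, and diamonds give the rate that other cells of that library had at matched J gene and CDR3 length class. Switched IGHV6-3 cells stand at 82.4% and 66.7%, above their diamonds at 41.6% and 37.7%.

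Unswitched IGHV6 cells had mismatches in 33.3% of cells in Cre+ and 21.2% in Cre-, against 14.8% and 15.05% of other unswitched cells. At matched J gene and length class the other cells gave 22.9% in Cre+ and 24.9% in Cre-. The Cre- share thus lay below its matched rate and the Cre+ share above it. For IGHV6-6 the shares were 34.9% in Cre+ (15 of 43) and 14.8% in Cre- (4 of 27) in unswitched cells, and 1 of 1 and 1 of 5 in switched cells.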

How the data were processed

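For each library the contig table was used, in which the authors deposited, per the file headers, every assembled receptor transcript with its barcode, V, D, J and constant gene, CDR3, and count of reads and UMIs. The counts were not normalised. Cell Ranger and GRCm38 stand in the submitters' processing notes, with the version not given in the sources used here. All contigs were flagged as called cells with high confidence. Gene expression was not used here.

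A cell was a barcode with exactly 1 productive heavy-chain CDR3. Barcodes with 2 or more heavy chains were left out, and no doublet caller was run. The light chain was the productive one with the most UMIs. Cells of 1 library with equal V gene, J gene and CDR3 length were a lineage where single linkage connected their CDR3 nucleotides at 85% identity. Length classes for the matched mismatch rate were up to 10, 11 to 12, 13 to 14, and more residues. Shares have exact 95% Clopper-Pearson intervals, differences an interval combined from both, and a count of 0 a limit of 3 cells. Named genes were both members, all J and constant genes, the 5 D and 5 light V genes with most IGHV6 cells, all lineages of 2 or more cells and the 3 genes of most like isotype profile. Further receptors were named after their values were seen. Members and lists were chosen with earlier results of these data known. Alternatives were other barcode, UMI, lineage and J-length rules. The steps were tested on simulated data, in Python 3.11.15 with pandas 2.3.3 and scipy 1.17.1.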

Additional observations from a re-analysis of the deposited data

Results flagged for a closer look

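The comparisons above use only barcodes with a single productive heavy chain, and 2 kinds of IGHV6 contig lay outside them. Productive IGHV6 chains in barcodes with 2 or more heavy chains numbered 8 in the Cre+ library, among 145 such barcodes, and 7 in the Cre- library, among 83. Of these chains 1 was switched in Cre+ and 0 in Cre-. IGHV6 contigs not called productive numbered 6 in Cre+ and 11 in Cre-, and 1 in each library was assigned to IGHV6-4, a gene with no cell. An IgA contig of IGHV6-3 in Cre+, not full length, with 21 UMIs and the CDR3 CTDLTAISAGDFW, came from a barcode with the light chain IGKV2-137. It has the Asp and Thr of the group described above and is not among its cells.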

How the results depend on the processing

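Of 234 alternative values for 44 results under 13 settings, 227 lay within the counting interval of the value above and 7 did not. The J mismatch share of unswitched IGHV6 cells in Cre+ was 18.1% with 6 nucleotides of J and 47.6% with 12, that of switched cells in Cre+ was 55.6% with 6, and that of unswitched cells in Cre- was 41.2% with 12. Longer windows reach further into the joint by construction. Among switched cells alone IGHV6 made up 4.93% of Cre+ and 2.08% of Cre- cells, and without the largest lineages 5.79% and 5.47%. At 80% identity 18.2% of Cre- IGHV6 cells were in lineages, and the cause was not tested. Leaving out the barcode within 2 bases of another with the same CDR3, and matching mismatch rates for J gene and length, were added after seeing the data. The barcode alternative moved no result outside its interval. Switched IGHV6-6 shares rest on 1 cell in Cre+ and 5 in Cre-. No paired analysis was possible because there is 1 library per genotype.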
